A study of Ovis aries with 2 samples.

Results

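The CpG sites of the centromeric array on the sheep Y-chromosome, and the place each of them holds within the repeat unit of that array, are described here. All CpG sites from 8038393 to 8159156 on chromosome Y of ARS-UI_Ramb_v3.0 were taken, which gave 11225 of the 372890 CpG sites of the chromosome. The array was cut from its first base into windows of 2516 bp, called units and numbered 0 to 47. The distance of a CpG site from the start of its unit is its phase. Phases were grouped into 26 classes of 100 bp, of which the last, from 2500 to 2515, is only 16 bp wide. The choice rests on positions alone and uses no methylation value. Methylation was measured in fetal lung, taken at 100 days of gestation from 1 F1 of the cross Churro x Friesian, whose Y-chromosome comes from the Churro sire. This animal gave 1 PacBio HiFi library and 1 ONT library, and these platforms are the 2 groups. There were no biological replicates, so no test between groups was possible, and the SD given below is that between units or between CpG sites of the same animal. The units are copies on the same chromosome of the same animal and are not replicates of a condition. The tissue label could not be checked against marker genes, since the data hold DNA methylation of chromosome Y only.

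A centromere is the place where the kinetochore assembles and the spindle fibers attach during cell division. In most mammals it is built from tandem copies of a repeat unit that differ little from each other. Cytosines of CpG dinucleotides in such arrays are often highly methylated, and nucleosomes with the histone variant CENP-A are known to lie in stretches of lower methylation. In the sheep Y array, the study found mobile elements within each unit, namely BOV-A2, a SINE, and BovB, a LINE. Where these lie in the unit was not located here, since no genome sequence was used. No RefSeq gene of ARS-UI_Ramb_v3.0 overlaps the array.

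The CpG pattern of the units was almost the same from unit to unit, except in the last window. Units 0 to 46 held 236 to 239 CpG sites each, while the last window, unit 47, held 45. When the CpG positions of every unit were aligned to those of unit 20, with insertions and deletions allowed, 238 positions were obtained. Of all CpG sites in the array, 11170 (99.5%) fell on one of these positions within units 0 to 46, which are called full units. Every full unit had between 98.3 and 100% of its CpG sites on such a position, and 229 of the 238 positions held a CpG in all 47 full units. The other 9 positions lacked a CpG in 1 to 4 units, which came to 16 missing CpG sites in all. Positions 838 and 1110 lacked it most often, in 4 units each, namely units 7, 9, 18 and 19 for the former and units 22, 24, 31 and 34 for the latter. Positions are counted in bp from the start of unit 20, at 8088713, which counts as 0.

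The fixed length of 2516 bp drifted against this pattern. From the start of unit 0 to the end of unit 46, the shift to the reference changed from -22 to 14 bp, a drift of 36 bp. The same CpG recurred after 2516 bp in 22 of the 46 steps from a full unit to the next, after 2515 bp in 20 and after 2512 bp in 4, by the most common spacing of each step. As a result, no CpG site had a phase that held a CpG in at least 50% of the units when exactly the same phase was asked for. The share was 21.3% when phases within 1 bp counted as the same.

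The deposited CpG coordinates also fix the letters C and G at each CpG, and these are shown for 2 stretches of unit 20 because they hold the densest and the least methylated CpG sites of the unit. All other bases are written n, CpG dinucleotides are in capitals, and the plus strand of ARS-UI_Ramb_v3.0 is read 5′ to 3′. The densest stretch is at chrY:8089562-8089620 (positions 849 to 907) and the other at chrY:8091205-8091275, where the end of unit 20 meets the start of unit 21. This junction is set by cutting the windows from the first base of the array and need not be an edge of the repeat.
Densest stretch: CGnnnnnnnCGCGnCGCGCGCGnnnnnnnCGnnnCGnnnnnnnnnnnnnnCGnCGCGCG
Unit junction: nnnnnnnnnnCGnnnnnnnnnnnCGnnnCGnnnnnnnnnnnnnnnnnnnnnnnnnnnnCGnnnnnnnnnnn
The densest stretch has 13 CpG sites in 59 bp. Over the full units, these positions had means of 78.2 to 92.2% (PacBio) and 63.5 to 86.0% (ONT). The unit junction has 4 CpG sites in 71 bp, which are positions 2502, 0, 5 and 35, with means of 8.37 to 20.8% (PacBio) and 7.44 to 48.8% (ONT).

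Methylation differed strongly with the place in the unit, and both platforms placed the low end at the junction of neighbouring units as cut here. Class levels are means over CpG sites, and their SD is that of the unit means. Between the highest and the lowest class, the difference was 67.4 percentage points on PacBio and 55.0 points on ONT. It rests on the narrow last class, and with classes of 200 bp it was 42.5 and 25.1 points. The classes 800-899, 900-999 and 1000-1099 were the highest on ONT, with 75.3% ± 4.83 (SD, n = 48 units), 76.3% ± 4.54 (n = 47) and 76.4% ± 5.43 (n = 48). The same classes had 83.1% ± 8.69, 80.5% ± 7.10 and 82.0% ± 8.67 on PacBio. The SD of 800-899 on PacBio was 5.30 points over units 0 to 46, since the last window alone had 35.2%. On PacBio the class 1900-1999 was also among the 3 highest, with 81.8% ± 13.7 (9.68 points over units 0 to 46), where ONT had 69.5% ± 7.38. These classes hold 468 to 790 CpG sites over all units.

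At the other end, the class 2500-2515 had the lowest methylation, with 15.7% ± 11.9 (SD, n = 44 units) on PacBio and 21.4% ± 11.7 on ONT. At the fixed phase this class mixes position 2502 with others that drifted into it, and after alignment, where it holds 2502 alone, it had 8.37% and 7.44%. The class 0-99, which follows it across the junction, had 22.0% ± 11.3 (n = 48) and 36.1% ± 8.66. Next lowest were different classes on the 2 platforms, 200-299 on PacBio with 40.4% ± 14.6 and 400-499 on ONT with 47.2% ± 5.32. The corresponding ONT value of 200-299 was 52.0% ± 7.52, and the PacBio value of 400-499 was 51.0% ± 8.95. The class 0-99 had the fewest CpG sites of the 25 classes of full width, 152 over all units, and the 16 bp of 2500-2515 held 62. Over the 25 classes of full width, the number of CpG sites and the methylation of a class had a Pearson r of 0.654 on PacBio and 0.706 on ONT, given as a description since the classes share reads. A CpG site had a median of 14 valid calls on PacBio in all 26 classes and of 53.5 to 60.5 on ONT, and the part of depth in the class levels was not tested.

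**Figure D1:**
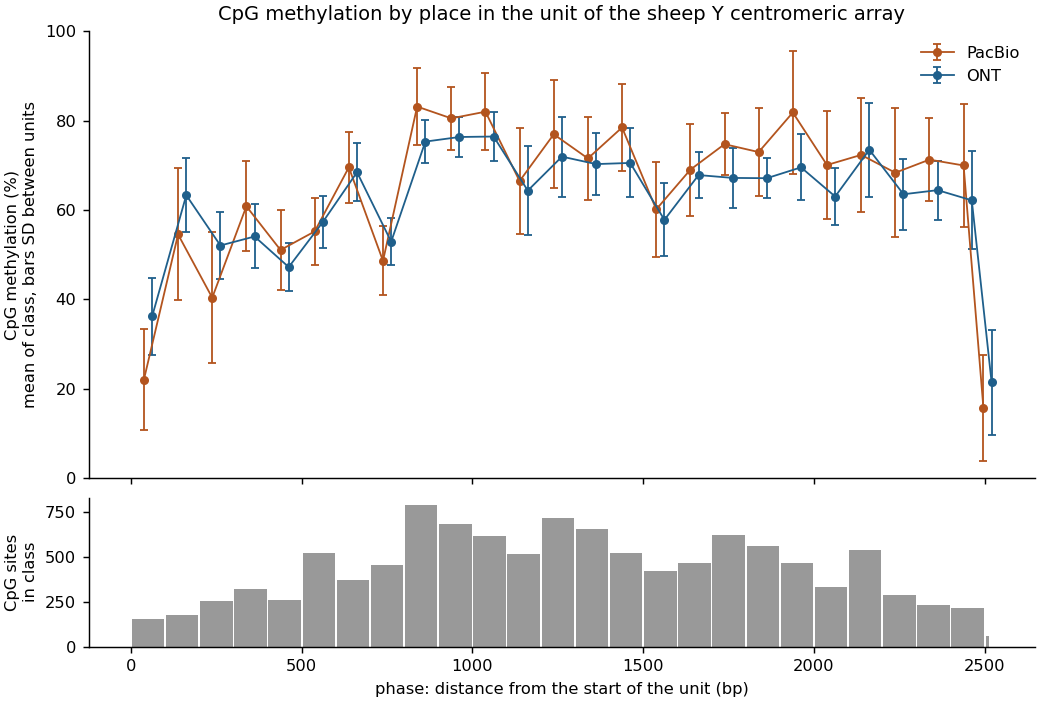
Upper panel, CpG methylation (%) against phase in the unit (bp) for 26 classes on PacBio and ONT, with points at the class mean and bars for the SD between units; lower panel, number of CpG sites per class over all units. Methylation is lowest in the 2500-2515 and 0-99 classes on either side of the unit junction (15.7 and 22.0% on PacBio at the fixed phase; 8.37 and 21.8% after alignment), and the ONT maximum is between 800 and 1099.

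The profile was not a single slope from the junction inwards. On ONT it was 63.3% ± 8.25 in the class 100-199, 47.2% in 400-499 and 68.4% ± 6.44 in 600-699. It was low again in 700-799, with 52.9% ± 5.20, just before the classes of the maximum. On PacBio the classes 600-699 and 700-799 had 69.5% ± 7.97 and 48.6% ± 7.73, and the step from 700-799 to 800-899 was from 48.6 to 83.1%. A shallower low lay in 1500-1599, with 60.1% ± 10.6 on PacBio and 57.8% ± 8.17 on ONT, where the SD without the last window was 4.80 points. Over the 26 classes, the platforms were related with r = 0.952 (Pearson) and rho = 0.912 (Spearman). The platforms read DNA of the same animal at the same CpG sites.

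At the fixed phase, the same class varied between units more than counting error alone would give. The SD between units had a median over classes of 10.2 points on PacBio and 7.05 points on ONT. The SD expected from binomial counting at the depth of the sites, taken as independent, was 3.79 and 2.02 points as a median, and all 26 classes exceeded it on both platforms. CpG sites on the same read are not independent, and the PacBio percentages come from a model, so these expected values are a rough guide. The class 1800-1899 varied least on ONT, with an SD of 4.43 points and units from 54.8 to 73.2%. The class 2500-2515 varied most, with 11.7 points and units from 1.82 to 37.7%. After alignment, where it holds position 2502 alone, its SD was 3.21 points on ONT and 4.37 points on PacBio. These lie below the counting SD of that position, 3.34 and 7.26 points.

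Part of this spread came from the last window, which counts as a unit only by the fixed length, since 33 of its 45 CpG sites matched aligned positions and it may not be a copy of the unit. In the class 2100-2199 unit 47 had 2.60% on PacBio and 8.51% on ONT, while units 0 to 46 ranged from 51.8 to 89.0% and from 62.8 to 82.8%. Its classes 1100-1199 and 1200-1299 were also low, with 15.6 and 13.5% on PacBio and 12.9 and 19.8% on ONT. These values of unit 47 rest on very few of its 45 CpG sites. The same classes hold 10.8 to 14.9 CpG sites per unit as a mean over all units. Without this window the median SD between units was 8.95 points on PacBio and 5.92 points on ONT. With aligned positions in place of the fixed phase, which also leaves out this window and the unmatched sites, it was 8.52 and 5.45 points.

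**Figure D2:**
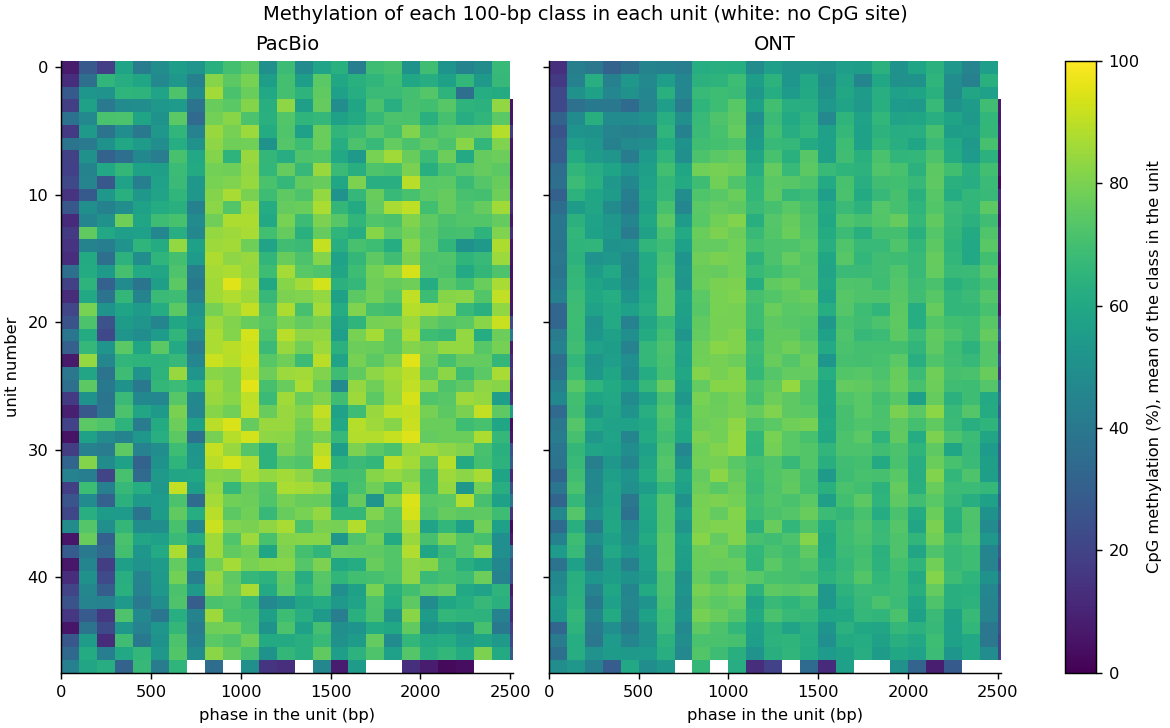
Mean CpG methylation (colour, 0 to 100%) of each 100-bp class (horizontal axis, phase in bp) in each unit (vertical axis, units 0 to 47) on PacBio and ONT, with white for classes without a CpG site. Vertical bands run through units 0 to 46 and break off at unit 47, where 45 CpG sites are left.

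Single CpG positions showed how far the pattern is repeated from copy to copy. Taken over the 238 aligned positions, the mean methylation of a position ranged over 84.4 points on PacBio and 81.4 points on ONT. The position of a CpG in the unit took up 59.0% of the variance among all matched sites on PacBio and 75.9% on ONT, against 29.2 and 29.8% for the 100-bp classes of the fixed phase, which are far fewer categories. The unit it belongs to took up 4.68 and 7.60%. Binomial counting error corresponds to 20.9 and 13.3% of the variance at the depth of these sites, with the same reservation for modelled percentages. Within a position, the SD between units had a median of 15.0 points on PacBio and 7.96 points on ONT, and the ratio of this SD to the counting SD of the position had a median of 1.35 on either platform. It was above the counting SD at 220 of 238 positions on PacBio and 227 on ONT.

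Position 2502, which lies alone with 58 bp to the CpG on its left and 13 bp to that on its right, had the lowest methylation on both platforms. Its ONT values in 46 units ran from 1.69 to 17.3%, with a median of 7.19% and a mean of 7.44% ± 3.21 (SD). On PacBio they ran from 4.40 to 28.4%, with a median of 6.55% and a mean of 8.37% ± 4.37. Among these 46 units, its highest thus stayed under the mean of every other position on ONT. Unit 46 had no CpG at 2502 but held one at place 2501, which is not counted here. That site had 23.8% on ONT (80 calls), above the mean of position 5, and 8.5% on PacBio (27 calls). The ONT mean rests on 2880 valid calls and the PacBio mean on 693.

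The next lowest positions on ONT were 5, with 23.5% ± 5.53 (SD, n = 47 units), 428, with 30.2% ± 7.95, 0, with 31.6% ± 8.79, and 265, with 33.7% ± 7.72. On PacBio these had 20.8% ± 14.04, 19.0% ± 12.6, 19.1% ± 15.0 and 26.1% ± 20.8. Positions 0 and 5 follow 2502 across the junction, whereas 428 and 265 lie further inside the unit. Position 428 and its neighbour 437, with 30.5% ± 16.9 on PacBio and 34.6% ± 8.62 on ONT, follow position 411, with 70.3 and 71.3%. The next position, 467, differed between the platforms, with 72.8% on PacBio and 22.8 points less on ONT. On PacBio, position 35 was the second lowest, with 18.1% ± 13.4, where ONT had 48.8% ± 10.3.

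Position 2404 was the highest on ONT, with 88.8% ± 4.05 (SD, n = 47 units) and units from 76.5 to 98.3%. PacBio gave 88.6% ± 5.12 there, with units from 70.8 to 95.8%. The other high positions were 902 with 86.0% ± 5.62, 1795 with 86.0% ± 6.73, 977 with 85.5% ± 6.68 and 2147 with 85.4% ± 5.90 on ONT. PacBio had 87.5% ± 9.52, 82.8% ± 11.3, 87.8% ± 9.05 and 76.1% ± 13.8 at these. The PacBio order was different, with 840 at 92.8% ± 6.30, 838 at 92.7% ± 7.71 (n = 43), 858 at 92.2% ± 7.54, 1245 at 92.2% ± 6.27 and 999 at 91.5% ± 5.61 as the highest. ONT had 77.5% ± 8.15, 85.2% ± 9.41, 80.7% ± 5.35, 70.6% ± 8.21 and 85.3% ± 4.14 there. Of those listed, 838, 840, 858 and 999 on PacBio lay in the classes of the maximum and 1245 outside them. Those on ONT included 1795, 2147 and 2404, the last near the end of the unit. PacBio positions 1814, 1785 and 1978 were close behind 999, with 91.5, 91.4 and 91.3%. These lists of 5 thus do not separate the platforms by place.

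Between position 2404 and the low at 2502 there are 3 more CpG positions, at which the level was intermediate. Position 2423 had 83.0% ± 13.7 on PacBio and 68.3% ± 8.81 on ONT, position 2433 had 76.3% ± 13.97 and 68.3% ± 7.48, and position 2444 had 59.2% ± 21.0 and 51.4% ± 10.1. The change from the highest to the lowest ONT position thus took place within 98 bp, the last 58 bp of which hold no CpG.

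**Figure D3:**
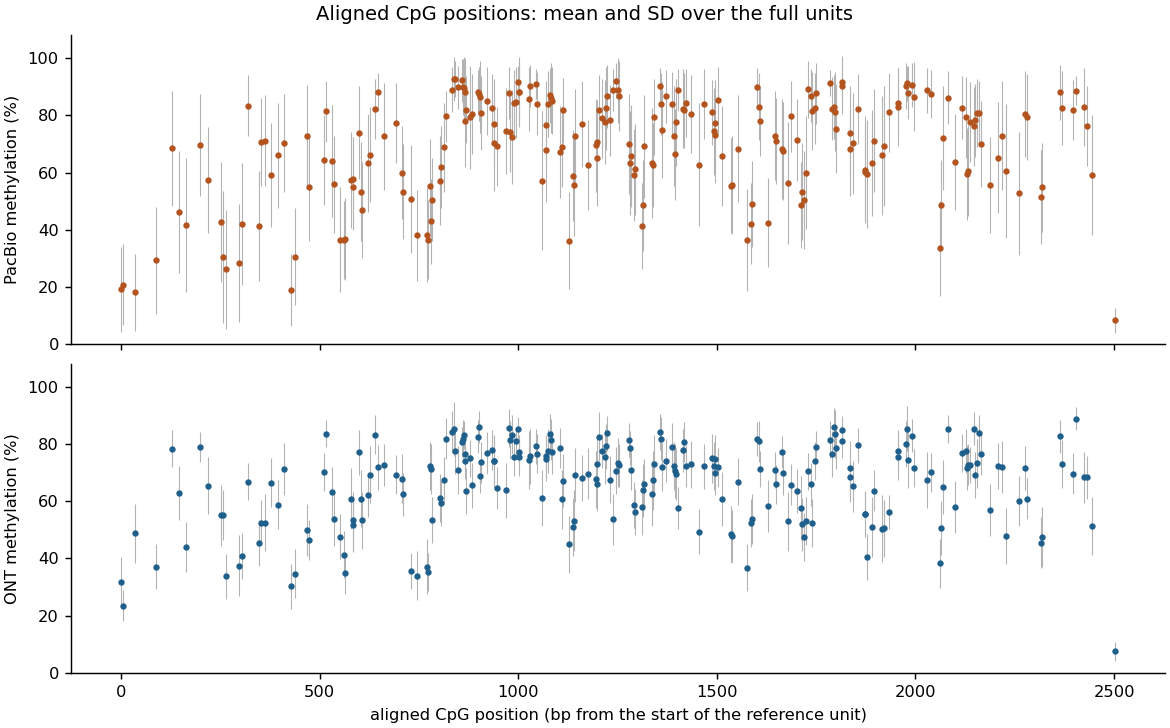
Mean CpG methylation (%) of each of the 238 aligned positions (horizontal axis, position in the unit in bp) on PacBio and ONT, with the SD between the 47 full units. The lowest position, 2502, lies at 8.37% on PacBio and 7.44% on ONT, while the highest ONT position, 2404, lies at 88.6 and 88.8%.

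The closer neighbouring CpG positions lay, the less their levels differed. Where the next CpG began 2 bp on, as in CGCG, the levels of both positions differed by a median of 3.42 points on PacBio and 3.32 points on ONT (47 pairs). The median difference was 5.74 and 6.82 points at 3 to 10 bp (102 pairs) and 12.1 and 12.6 points at 11 to 30 bp (76 pairs). Positions with the nearest CpG 2 bp away had a mean level of 67.5% ± 13.02 on ONT (SD between positions, n = 86), those with it at 3 to 10 bp had 66.7% ± 14.3 (n = 119) and those with none within 10 bp had 61.1% ± 16.1 (n = 33). On PacBio these were 69.3% ± 16.2, 71.5% ± 17.7 and 62.9% ± 20.2, so the levels did not follow the distance in order, and the differences were smaller than the SD within each group.

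Units were alike in profile at any distance within the array. For each of the 1081 pairs of full units, the aligned positions had a Pearson r with a median of 0.612 on PacBio (0.371 to 0.780) and 0.824 on ONT (0.718 to 0.878). Adjacent units had a median r of 0.622 and 0.840 (46 pairs), and units 40 apart one of 0.646 and 0.825 (only 7 pairs). The pairs share units and the platforms differ in depth, so these values are descriptive.

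Without alignment the likeness declined with distance, and the drift of the unit start is included in that decline. Over windows of 20 bp, methylation had an r of 0.652 on PacBio and 0.852 on ONT at a distance of 1 unit (5068 window pairs). At 10 units r was 0.555 and 0.708, and at 40 units it was 0.226 and 0.180. At 0.5 units, by contrast, r was -0.151 and -0.068, and at 100 bp it was 0.055 and 0.041.

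**Figure D4:**
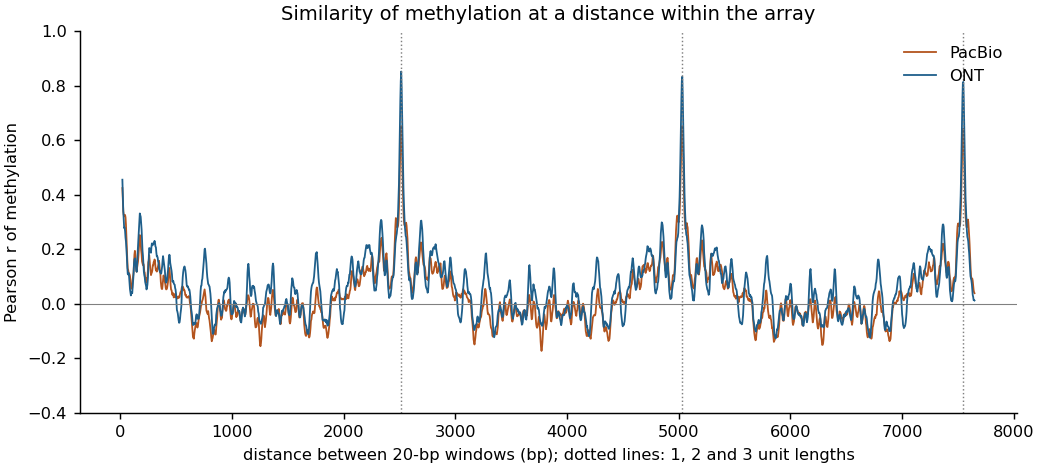
Pearson r (vertical axis) between the methylation of 20-bp windows and that of windows a given distance away (horizontal axis, in bp) in the array, on PacBio and ONT. Peaks stand at whole numbers of units, with r of 0.652 on PacBio and 0.852 on ONT at 1 unit and 0.653 and 0.833 at 2 units.

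The flanks, folded in the same way, did not have such a profile. Stretches of the same length on either side of the array, with 1644 CpG sites on the left and 1141 on the right, were cut into windows of 2516 bp. Classes then took up 3.44 and 3.88% of the site-to-site variance on PacBio and 3.36 and 3.37% on ONT, against 29.2 and 29.8% in the array. At a distance of 1 unit, r was -0.152 and -0.031 on PacBio and -0.156 and -0.011 on ONT, from 255 and 172 window pairs. The window a CpG lay in took up 48.3 and 15.0% on PacBio in the flanks, and 48.9 and 15.1% on ONT, whereas it took up 5.01 and 8.13% in the array. The array holds 92.9 CpG sites per kb and the flanks 13.6 and 9.45, and the part of this difference in the comparison was not tested.

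Along the array, units in the middle were more methylated than those at the ends. The mean of a full unit was 69.5% ± 5.03 (SD, n = 47 units) on PacBio and 66.2% ± 4.55 on ONT, with ranges from 56.5 to 77.2% and from 52.6 to 72.6%. Units 25, 27 and 28 were the highest on ONT, with 72.6, 71.5 and 71.0%, where PacBio had 74.6, 75.0 and 77.2%. Units 0, 1 and 3, close to the left end, were the lowest full units on ONT, with 52.6, 55.7 and 57.4%, where PacBio had 56.5, 63.0 and 64.4%. On PacBio the lowest were unit 0 and units 42 and 44 near the right end, the latter with 58.2 and 59.1%, where ONT had 63.8 and 60.02%. PacBio was above ONT in 42 of the 47 full units, and the exceptions were units 40 to 44. Between platforms, the means of the 47 full units were related with r = 0.830 and rho = 0.903.

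When the full units were split by place into units 0 to 15, 16 to 31 and 32 to 46, ONT had 63.2% ± 5.25 (SD, n = 16 units), 69.7% ± 1.30 (n = 16) and 65.7% ± 3.35 (n = 15). PacBio had 67.4% ± 3.75, 74.1% ± 1.72 and 67.0% ± 5.42. The middle units were also the most alike, although their range of 67.2 to 72.5% on ONT overlapped with those of the left units, 52.7 to 68.9%, and the right units, 59.6 to 69.2%. For this split the units were bounded by the aligned positions, so their means differ slightly from those of the fixed windows above. The middle stood above both ends at 192 of 238 positions on PacBio and at 212 on ONT, so the difference was spread over the unit. Right units were above left units at 203 positions on ONT, but at 105 on PacBio. The profile over the 238 positions was nevertheless close in left and right units, with an r of 0.961 on PacBio and 0.983 on ONT.

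Depth varied along the array together with these levels. A CpG site had a median of 14, 12 and 16 valid calls in the left, middle and right units on PacBio and 56, 61 and 54 on ONT. Over full units, methylation and mean depth had an r of -0.742 on PacBio, while on ONT r was -0.257 and rho was -0.049. ONT methylation had an r of -0.541 with PacBio depth. PacBio depth per unit ran from a median of 10 calls in unit 29 to 30 in unit 45. The part of depth in the levels was not tested.

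**Figure D5:**
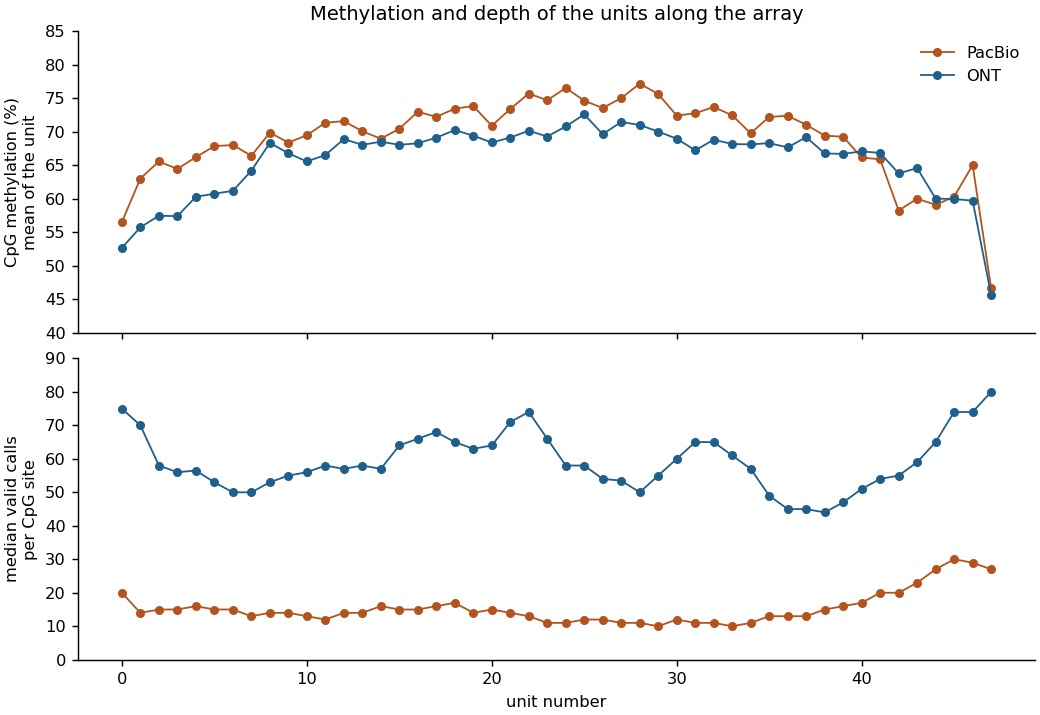
Mean CpG methylation (%) of each unit on PacBio and ONT, with the median depth in valid calls per site, against unit number (0 to 47) from the left to the right end of the array; the methylation axis starts at 40%. The highest full unit on ONT is unit 25 with 72.6%, the lowest is unit 0 with 52.6%, and the last window has 45.6% on ONT and 46.7% on PacBio.

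What was left of a unit after its positions and its mean were taken out had a low r between the platforms. Counting error lowers such an r, and its part was not tested. Deviations of single CpG sites from the mean of their position had an r of 0.277 between PacBio and ONT (11170 sites), and 0.154 once the mean of the unit was also removed. Averaged per class and unit, the deviations from the position mean had an r of 0.457 and the latter deviations one of 0.236 (1221 values). Their SD was 7.57 points on PacBio and 3.21 points on ONT. Deviations in a class and in the same class of the next unit had an r of -0.014 on PacBio and 0.075 on ONT (1195 pairs).

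The platforms differed in level by place in the unit. PacBio was higher in 19 of 26 classes and ONT in 7, and the difference ran from -14.1 points in 0-99 to 12.3 points in 1900-1999. Over positions it ran from -30.7 to 35.1 points, with PacBio higher at 163 and ONT at 75 of 238. Positions 1239 and 1402 had the largest excess on PacBio, with 88.7% ± 7.31 against 53.6% ± 9.02 (SD, n = 47 units) and 88.8% ± 7.37 against 57.6% ± 7.36. PacBio was higher in all 47 units at these positions and at 1245. The largest excess on ONT was at position 35, with 48.8% ± 10.3 against 18.1% ± 13.4, and ONT was higher there in 45 of 47 units. These positions were picked for their differences after the values had been seen.

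ONT calls left out because their probability lay between the thresholds made up 18.6% of all calls in the array, and 13.5 and 12.9% in the flanks. By position their share ran from 7.53% at 437 to 41.2% at 946. It was 25.1% at 1239, 31.1% at 1402 and 39.1% at 35, all above the median of 17.7%. Over the 238 positions, this share and the PacBio minus ONT difference had an r of 0.203. Over all CpG sites of the array the platforms had an r of 0.651, against 0.887 and 0.842 in the flanks. Median depth was 14 valid calls (PacBio) and 57 (ONT) in the array. In the left flank it was 33 and 96, and in the right flank 41 and 87. The SD between sites was 23.1 and 16.4 points in the array. It was 28.1 and 24.9 points in the left flank and 24.8 and 21.9 points in the right. The part of depth and spread in these r values was not tested.

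The strands also differed in the ONT calls at some positions. The median absolute difference between plus and minus strand was 7.74 points, and it was over 20 points at 26 of 238 positions. At position 2040 the plus strand had 41.4% and the minus strand 85.3%, and at 352 they had 30.4 and 69.8%, with the minus strand higher in all 47 units at each. Positions 1402 and 1934 differed the other way, with 70.9 against 38.9% and 70.9 against 39.1%. Large differences between strands and between platforms did not always fall together, as plus minus minus strand was 31.9 points at 1402 but 0.68 points at 1239 and -5.42 points at 35. Which of the platforms or strands is nearer to the true level was not tested.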

How the data were processed

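CpG methylation was measured in lung DNA of 1 animal with 1 PacBio and 1 ONT library. The platforms are technical repeats and not biological replicates, so no p-value was computed. For PacBio, the authors called methylation with Primrose, aligned the reads with pbmm2 and deposited a modelled percent for each CpG from the pileup model of pb-CpG-tools, with estimated read counts. For ONT, the authors used Dorado, Winnowmap and modbam2bed and deposited counts of methylated and unmethylated calls per strand, with calls between 20 and 80% probability left out of both. The filter on ONT alignments is not given in the sources used here. A score that the authors deposited for each ONT record served only to check the layout. Coordinates are 1-based on ARS-UI_Ramb_v3.0.

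ONT strands were added up, and CpG sites with under 5 valid calls would have been left out, but there were none. Depth in the array was 9 to 31 valid calls per CpG on PacBio (median 14) and 17 to 97 on ONT (median 57). Reads from near-identical units can be placed in the wrong unit, which would make units look more alike, and this was not tested. Counting errors cover counting only.

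Class means, the SD between units, shares of variance and correlations were computed in Python 3.11.15 with NumPy 2.4.6, pandas 2.3.3 and SciPy 1.17.1, and drawn with matplotlib 3.10.9. CpG positions of each unit were aligned to unit 20, on a ring of 2515 bp. At the left end of the array, 1 matched CpG site was left out, since by alignment it belongs to a copy before the first full unit. Scripts were tested on simulated data. Named by rule were the 3 highest and lowest classes on each platform, and the 3 highest and lowest units and 5 highest and lowest positions on ONT. Other positions and units were named after their values were seen. The members, lists and comparisons were chosen with earlier results of these data known. Alternatives were the coverage minimum, alignment, class width, end units, unit length, weighting, PacBio read estimates, separate ONT strands and the calls between thresholds.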

Additional observations from a re-analysis of the deposited data

How the results depend on the processing

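No paired analysis was possible because each platform has 1 library of 1 animal and no result comes from a test. Of 102 alternative values, 78 moved by less than the SD between platforms (for PacBio minus ONT and the correlation of classes between platforms, the SD between the left, middle and right parts of the array, and for shared CpG positions, the exact 95% binomial interval), 23 moved by more and 1 reversed. For the share of variance by class that SD is small, so modest changes exceed it.

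The class share on PacBio, 29.2%, was 27.9% with at least 20 calls, 32.1% with aligned phases, 37.1% with classes of 50 bp, 19.7% with classes of 200 bp, 30.1% without the first and last unit, 26.4% with a unit 1 bp shorter, 28.5% when weighted by calls and 28.5% from estimated reads. On ONT, 29.8%, it was 33.9% with aligned phases, 42.4% with 50 bp, 19.5% with 200 bp, 30.8% without the end units, 30.5% when weighted, 23.2% with strands apart and 28.3% with calls between the thresholds as unmethylated. The range over classes was 42.5 points on PacBio and 25.1 points on ONT with 200 bp, which merges the short last class with its neighbours, and on ONT 69.3 points with aligned phases and 45.4 points with calls between the thresholds as unmethylated. With at least 20 calls, the median SD between units was 12.8 points on PacBio, the correlation of classes 0.904, and PacBio minus ONT reversed from 3.32 to -0.145 points. That minimum leaves PacBio sites in units 0 and 41 to 47 only. Shared CpG positions went from 0% to 21.3% within 1 bp and 99.5% after alignment. Aligned phases also leave out the last window and unmatched sites. Otherwise the cause was not tested. Leaving out the last window, an alternative chosen after seeing the data, moved no value by more than that SD. Depth limits the precision of single sites, with a median of 14 calls on PacBio and 57 on ONT.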

Other observations

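The CpG pattern of the unit continued past the left end of the array. In the 524 bp before its first base there were 32 CpG sites, 31 of which matched positions 2029 to 2444 of the unit with a shift of -23 bp. These 31 sites had 57.8% on PacBio and 51.4% on ONT, against 70.9 and 67.6% at the same positions of the full units, and an r with those positions of 0.733 and 0.772. The median depth there was 25 and 85 valid calls.

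The full units held 9 CpG sites outside the aligned positions. Of these, 5 lay at the same place, 2283, in units 0, 6, 30, 40 and 42. On ONT they had 41.3, 44.2, 47.9, 50.9 and 51.8%, from 52 to 75 calls each. On PacBio they had 20.7, 85.3, 87.3, 40.1 and 77.4%, from 13 to 23 calls each. The other 4 were in unit 46, next to the last window.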
